A study of Mus musculus with 12 samples.

Results

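Of the 12837 genes counted in sorted mouse follicular B cells both before and after culture, 54 were selected because their level moved during culture in GPR174-deficient cells while it stayed nearly level, or moved the other way, in WT cells. The genes were selected on the measured values. Counts were divided by the library total and multiplied by 1000000 (CPM), averaged over the 3 libraries of a group, and turned into a culture change, log2 of (4 h mean + 1) over (0 h mean + 1). A gene was taken if its mean over the 4 groups was at least 8 CPM, its culture change in deficient cells (KO) was at least 0.6 in either direction, and its change in WT cells was under 0.25 in size or of the opposite sign. Of the 54 genes, 36 were lowered in KO culture and 18 were raised. Because these values chose the genes, the culture changes are given below as a description and carry no test.

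The cells were CD21/35- CD23+ follicular B cells sorted from spleens of adult male mice, WT (Gpr174+/Y) or GPR174-deficient (Gpr174-/Y), and were frozen straight from sorting (0 h) or once they had spent 4 h in serum-containing complete RPMI with no added stimulus. The 4 groups (WT 0 h, WT 4 h, KO 0 h and KO 4 h) held 3 libraries each. The deficient allele was made in a 129-derived embryonic stem cell line and backcrossed to C57BL/6J. It carries tdTomato in place of the only coding exon of *Gpr174* in all cells of the mouse, so the B cells came from a host that lacked the receptor throughout. Per the study, the libraries came from 3 mice per genotype. They are labelled by genotype, number and time, and the numbers 1 to 3 of each genotype recur at both times, so the 0 h and 4 h libraries of a number may share a mouse. P-values measure the spread between libraries.

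GPR174 is a receptor for lysophosphatidylserine that couples to the G protein Gαs. Gαs activates adenylyl cyclase, and the cAMP it makes releases protein kinase A to phosphorylate CREB at cAMP response elements near immediate early genes. Early genes are switched on and off quickly by handling and culture, and B cells placed in culture lose the signals of their tissue.

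Library totals ran from 6098941 to 11618787 counts, and ribosomal precursor RNA (*Rn45s*) took 6.65% to 11.3% of a library. All 8 B cell markers were counted at both times, summing to 9262 to 13057 CPM. On the CPM scale the median gene of at least 8 CPM moved by 0.10 in KO and 0.11 in WT culture, and with library sizes rescaled by TMM (trimmed mean of M values) both medians were 0.01. A shift of about 0.1 in the median culture change therefore belongs to the scale used here. In bulk RNA, fewer cells of a type and less RNA per cell cannot be told apart.

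The targeted gene itself was among the 54. *Gpr174* (chromosome X, 107255878 to 107296769, plus strand, GRCm38) was counted at 141, 142 and 151 CPM in the WT 0 h libraries and at 163, 177 and 158 CPM in WT 4 h. KO 0 h libraries held 72.0, 75.1 and 72.3 CPM, and KO 4 h libraries held 123, 109.9 and 109.6 CPM. Every KO library lay below every WT library, and within KO the cultured libraries lay above the uncultured ones. The row sums reads over all exons, of which only the coding exon was replaced, so it does not measure intact receptor message. *Cd86*, a costimulatory molecule that the study followed as its readout, gives a further check of the labels, at 152 to 182 CPM in WT 4 h against 37.5 to 41.1 CPM in KO 4 h.

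Promoters of early genes in the list were read because cAMP response elements have a known sequence. RefSeq windows (GRCm38.p6, 250 bases before to 50 after the annotated start) were matched for 40 of the 54 genes. The full element, TGACGTCA on either strand, was found in 3 of the 28 lowered genes with a window and in 0 of the 12 raised ones, against 3.34% of 9042 windows of measured genes. The 3 genes were *Plk2* (62 bases before the start), *Dusp1* (143 bases before it) and *Ncaph* (16 bases after it). Of the other early genes in the list, *Sik1*, *Ier2* and *Cd83* had no window and were not searched. *Junb* had a window without the full element. The upstream 250 bases of *Plk2* (chr13:110394794-110395043, plus strand) and *Dusp1* (chr17:26508473-26508722, minus strand) are shown 5′ to 3′ because these early genes ended far lower in KO than in WT culture, with the element in capitals.
Plk2: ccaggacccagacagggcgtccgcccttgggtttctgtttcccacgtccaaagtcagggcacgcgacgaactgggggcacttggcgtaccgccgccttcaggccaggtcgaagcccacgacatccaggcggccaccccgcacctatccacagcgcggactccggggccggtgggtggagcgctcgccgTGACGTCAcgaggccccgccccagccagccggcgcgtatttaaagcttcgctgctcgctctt
Dusp1: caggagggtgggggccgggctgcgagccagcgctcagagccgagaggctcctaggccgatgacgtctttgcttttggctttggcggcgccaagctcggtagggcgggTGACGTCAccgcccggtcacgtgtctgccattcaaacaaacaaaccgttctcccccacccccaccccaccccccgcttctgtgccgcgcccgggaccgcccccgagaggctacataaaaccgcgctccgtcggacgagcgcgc
The shorter core TGACG, which the full element contains, was in 12 of 28 lowered and 4 of 12 raised genes, with 34.04% of windows as background. AP-1 sites (TGANTCA) were in 4 lowered and 0 raised genes (background 4.56%). The core of the interferon-stimulated response element (GAAANNGAA) was in 4 lowered and 2 raised genes (7.21%), with 3 matches upstream of *Ifit3* and 1 upstream of *Rsad2*. CCAAT boxes were in 9 lowered and 8 raised genes (37.9%). The selected genes were counted per gene, some with several windows, and the background per window, so the shares differ in unit. A match is a stretch of letters in a window and not a shown binding site.

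The plot of culture changes places the 54 genes in the field of all genes. Among 8820 genes of at least 8 CPM, 562 changed by 0.6 or more in KO culture, 236 upward and 326 downward, and 508 of these moved the same way by 0.25 or more in WT. The 54 are the remainder. The same rule with the genotypes exchanged took 188 genes, 104 raised and 84 lowered in WT. In the 36 lowered genes the median change was −0.71 in KO and 0.11 in WT, and in the 18 raised genes it was 0.68 in KO and 0.16 in WT, the WT medians lying near that of all genes. Just inside the threshold were *BC024582* and *Zfp956* (both 0.61) and *Otub2* and *Ccr6* (both −0.61). Just outside were *Evl* and *D730005E14Rik* (both 0.60) and *Clip2* and *Kif11* (both −0.59).

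**Figure D1:**
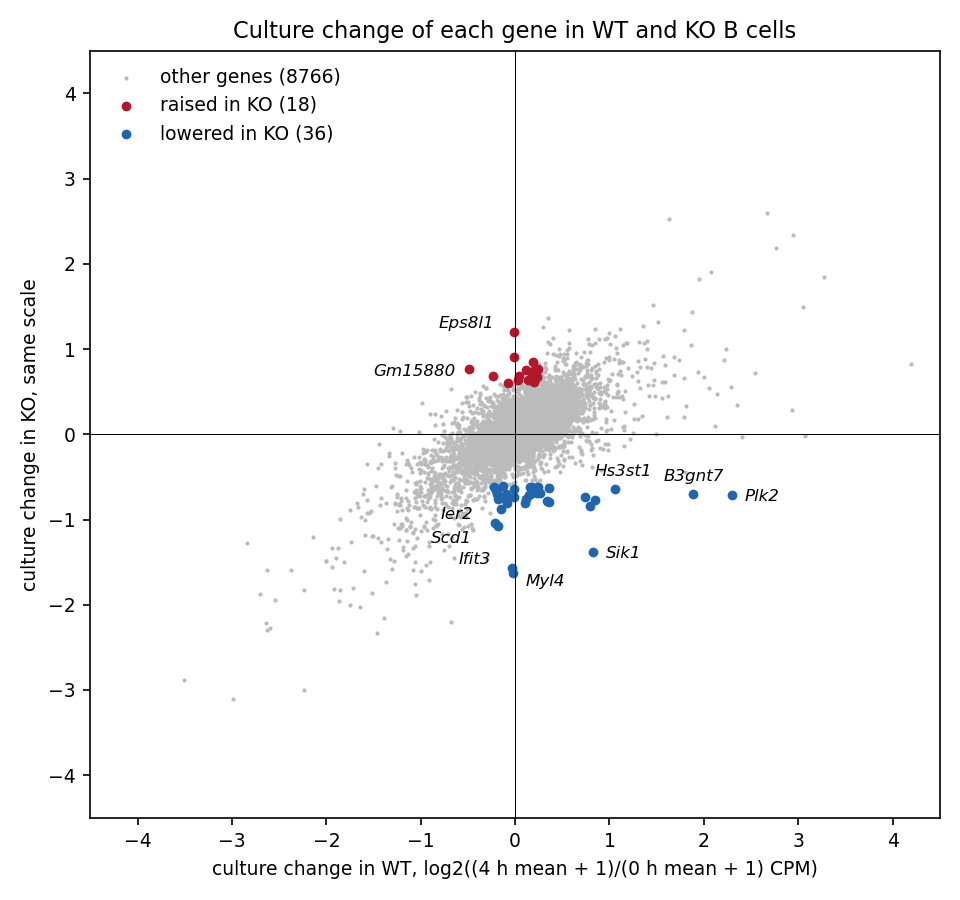
Culture change in WT (x axis) and KO (y axis), each log2 of (4 h mean + 1) over (0 h mean + 1) CPM, for the 8820 genes of at least 8 CPM, with the 54 selected genes in color. Most genes lie along a rising diagonal, while the 36 lowered and 18 raised genes form bands near or across the vertical zero line, from *Myl4* (−1.63 in KO) to *Eps8l1* (1.20 in KO).

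The 54 genes reached their pattern from different starting points. For 38 of them (27 lowered, 11 raised) the KO and WT means stood farther apart at 4 h than at 0 h, on the log2(CPM + 1) scale. The other 16 (9 lowered, 7 raised) stood farther apart at 0 h. The 9 lowered genes of this second kind began above WT and the 7 raised ones began below it. The selection rule and this grouping together fix those directions, so they are a description and not a result. The heat map of single libraries shows the 4 kinds.

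**Figure D2:**
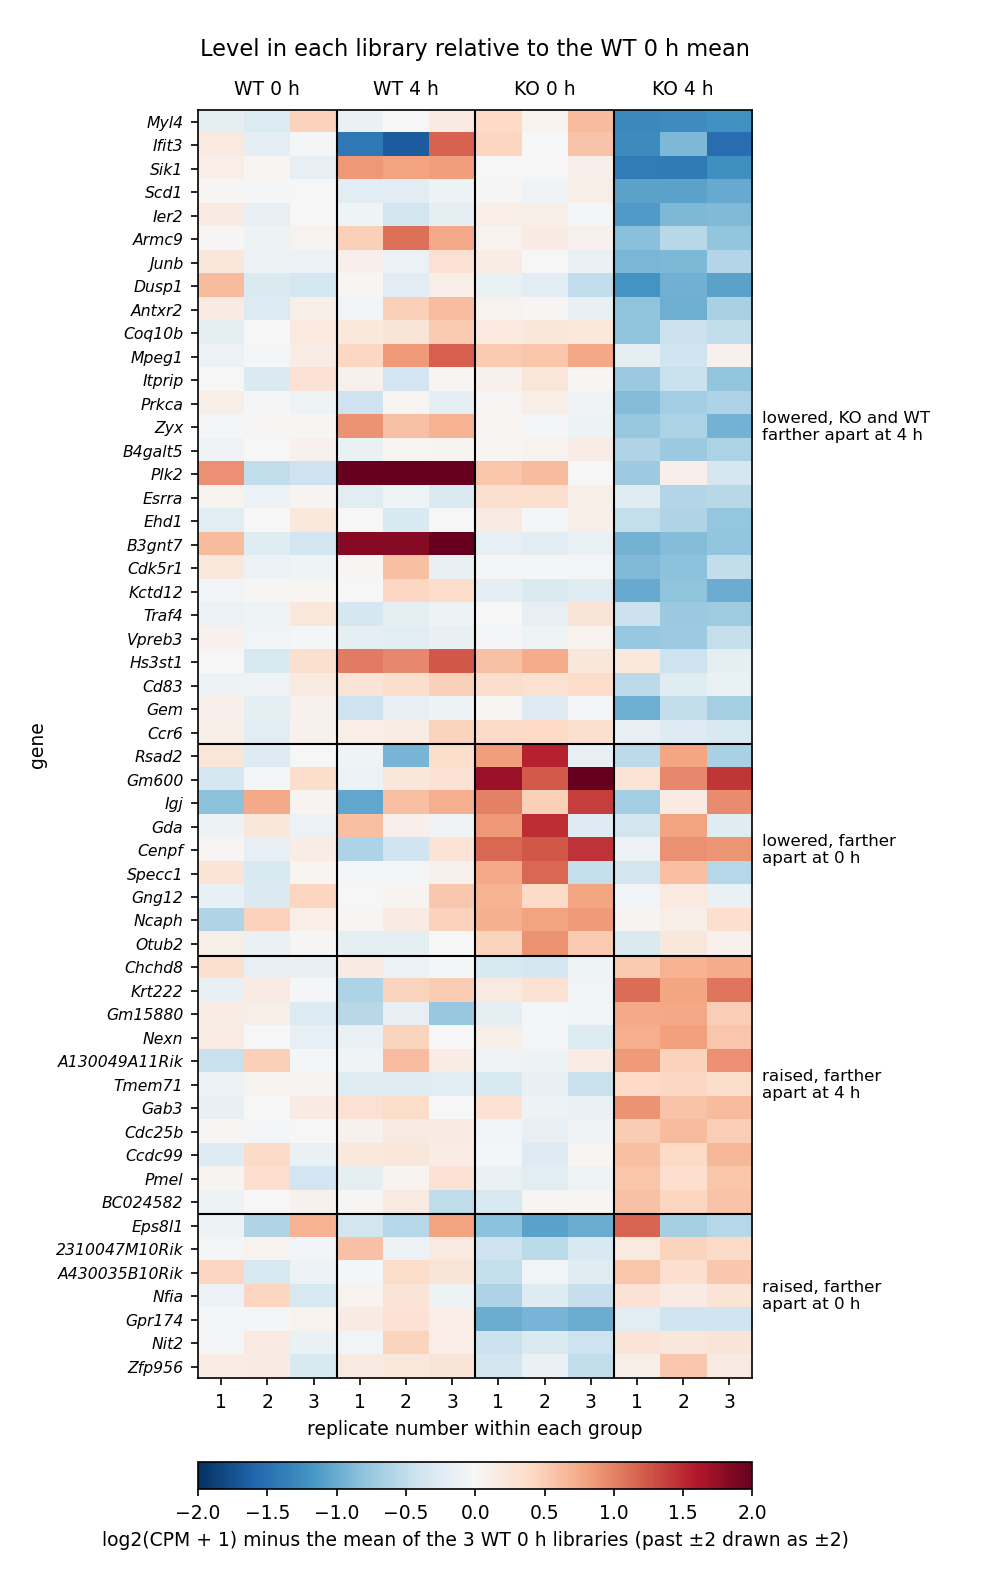
Level of the 54 genes (rows) in the 12 libraries (columns, by group and replicate number), as log2(CPM + 1) minus the mean of the 3 WT 0 h libraries. In the top block of 27 genes the blue KO 4 h columns stand apart from the other groups, while in the block of 9 genes below it the red KO 0 h columns do, with *Rsad2*, *Gda* and *Specc1* red mainly in KO replicates 1 and 2.

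Some genes moved in opposite directions in WT and KO. In 12 of them the WT change was at least 0.25 in the direction opposite to KO, 11 of them lowered in KO (*Sik1*, *Armc9*, *Plk2*, *Zyx*, *B3gnt7*, *Antxr2*, *Hs3st1*, *Mpeg1*, *Cd83*, *Kctd12* and *Coq10b*) and 1 raised (*Gm15880*). Another 12 genes had a WT change of opposite sign that was smaller than 0.25. Part of this depends on the scale. Under TMM scaling the WT changes of *Kctd12* (0.157), *Coq10b* (0.236) and *Antxr2* (0.249) kept their sign but were under 0.25. That of *Junb*, among the smaller ones, became −0.006, the same sign as in KO.

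*Sik1* (chromosome 17, 31844250 to 31855804, minus strand) encodes salt-inducible kinase 1, a CREB target that holds CREB coactivators in the cytoplasm. It was counted at 59.1, 55.1 and 47.8 CPM in WT 0 h and at 53.3, 53.8 and 58.1 CPM in KO 0 h. After culture the WT libraries held 98.6, 94.3 and 96.5 CPM and the KO libraries 19.9, 19.6 and 22.3 CPM. Uncultured libraries of both genotypes overlapped, and in culture WT libraries all lay above that range and KO libraries all below it. The change was 0.83 in WT and −1.38 in KO.

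*Plk2*, a polo-like kinase of the early response, was low before culture, at 17.9, 6.19 and 6.54 CPM in WT and 13.9, 14.6 and 9.14 CPM in KO. WT culture raised it to 51.4, 48.2 and 62.5 CPM, while KO 4 h libraries held 5.07, 9.81 and 6.97 CPM. KO 0 h and KO 4 h libraries overlapped at this gene, whose change was 2.29 in WT and −0.71 in KO. Without KO 4 h replicate 1 the KO change was −0.53, short of the threshold.

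*Cd83*, a surface glycoprotein of activated B cells, held 197, 198 and 239.7 CPM in WT 0 h and 253, 269.9 and 295 CPM in WT 4 h. In KO it went from 269, 262 and 272 CPM to 147, 178 and 193 CPM. KO libraries lay above WT at 0 h and below WT at 4 h, with no overlap at either time. *Mpeg1*, which encodes the pore-forming protein perforin-2, crossed over in the same way, from 19.3, 20.3 and 23.4 CPM to 28.1, 38.5 and 49.2 CPM in WT and from 30.5, 31.3 and 36.6 CPM to 18.2, 15.6 and 22.3 CPM in KO. *Ccr6*, the receptor for CCL20, was 97.1 to 122 CPM in WT 0 h and 124 to 153 CPM in WT 4 h, against 141 to 148 CPM in KO 0 h and 90.3 to 100.3 CPM in KO 4 h. For all 3 of these genes the KO libraries were the higher ones before culture. *Mpeg1* is also expressed by macrophages, whose 23 listed markers (21 counted at 0 h, 14 at 4 h) summed to 125 to 143 CPM in all uncultured libraries and 44.6 to 73.5 CPM in all cultured ones. The part of those cells in the *Mpeg1* values was not tested.

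*B3gnt7*, an N-acetylglucosaminyltransferase, was 8.91, 4.38 and 3.87 CPM in WT 0 h and 21.5, 21.5 and 28.5 CPM in WT 4 h. KO went from 4.71, 4.49 and 4.84 CPM to 2.33, 2.48 and 2.70 CPM. The KO 4 h libraries were thus the lowest of all 12, and the WT 4 h libraries the highest. *Hs3st1*, a heparan sulfate sulfotransferase, went from 14.9 to 23.7 CPM in WT up to 37.4 to 45.5 CPM, and from 22.2 to 31.9 CPM in KO down to 13.8 to 21.9 CPM. *B4galt5*, a galactosyltransferase of glycolipid synthesis, kept its level in WT (101, 106 and 113 CPM, then 97.0, 109 and 111 CPM) and went from 109, 112 and 118 CPM to 69.9, 63.5 and 68.5 CPM in KO. Only its KO 4 h libraries stood outside the range of the others.

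*Armc9*, which encodes an armadillo-repeat protein of the cilium base, is the upstream neighbor of *B3gnt7* on chromosome 1 (86154780 to 86278284 and 86302832 to 86307305, both plus strand). The genes are 24548 bases apart with 0 annotated genes between them. *Armc9* held 70.8, 65.3 and 73.8 CPM in WT 0 h, 97.5, 151 and 119 CPM in WT 4 h, 73.7, 78.6 and 74.3 CPM in KO 0 h and 38.6, 47.1 and 39.8 CPM in KO 4 h. It shared the order of *Sik1*, with cultured WT above, cultured KO below and both uncultured groups between. The remaining pairs within 1000000 bases were *Ier2* with *Junb* on chromosome 8 (311632 bases, 22 genes between) and *Ehd1* with *Esrra* on chromosome 19 (610881 bases, 24 genes between).

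*Zyx* encodes zyxin, an actin-binding protein of focal adhesions and a known serum response factor target. It was 48.7, 51.0 and 50.8 CPM in WT 0 h, 94.8, 75.9 and 81.9 CPM in WT 4 h, 51.8, 48.6 and 46.6 CPM in KO 0 h and 29.3, 32.0 and 25.6 CPM in KO 4 h. The genotypes overlapped before culture and were far apart after it. Of 60 tested actin, adhesion and serum response factor target genes, *Zyx* was the only 1 among the 54. In that list edgeR called 4 higher and 37 lower in KO culture and 4 higher and 41 lower in WT culture. Over all 11572 genes tested it called 1193 higher and 1503 lower in KO culture, and 1750 higher and 2080 lower in WT culture. *Antxr2* and *Kctd12* had the same order of means, but their WT 0 h and WT 4 h libraries overlapped. The exons of *Kctd12* share 62.8% of their bases with a gene on the opposite strand (*Gm26778*), and since strand was not stated for the counting, its reads could not be assigned with certainty.

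**Figure D3:**
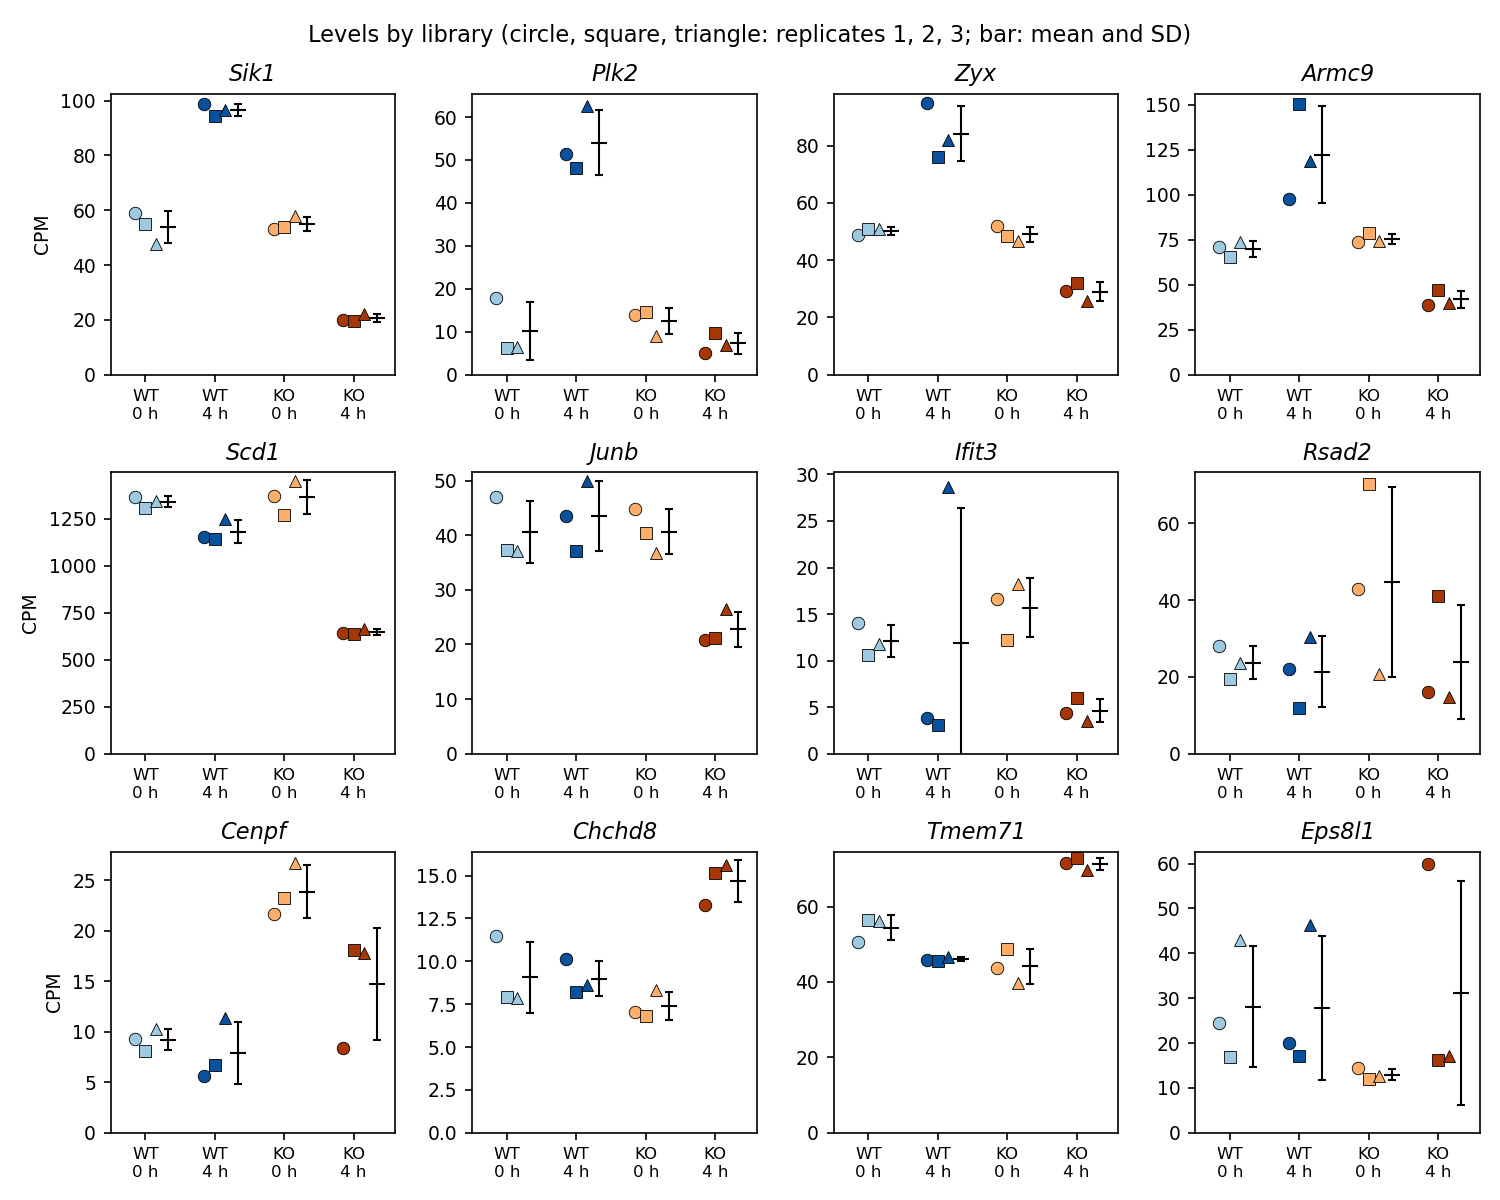
CPM of 12 of the genes in each library, by group, with circles, squares and triangles for replicates 1, 2 and 3 and a bar for mean and SD (n = 3). *Sik1*, *Zyx* and *Armc9* separate upward in WT 4 h and downward in KO 4 h, *Scd1* and *Junb* fall in KO 4 h, and single libraries set the means of *Ifit3* (WT 4 h replicate 3, 28.6 CPM) and *Eps8l1* (KO 4 h replicate 1, 60.0 CPM).

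A further group of lowered genes had a WT change under 0.25 in size, and some of them fell in both genotypes, less in WT. *Scd1*, the desaturase that makes monounsaturated fatty acids, had the largest counts among the 54. It was 1367, 1308 and 1346 CPM in WT 0 h and 1368, 1270.5 and 1452 CPM in KO 0 h. After culture WT libraries held 1154, 1141 and 1250.4 CPM and KO libraries 640.4, 635 and 664 CPM. The uncultured genotypes overlapped, and replicates within each cultured group were close together. WT fell by 0.18 and KO by 1.08 on the log2 scale, with no overlap between 0 h and 4 h in either genotype. With TMM-scaled libraries its WT change was −0.29, past the limit of 0.25, while the KO change was −1.17. *Scd1* was the only 1 of the 36 tested sterol and SREBP (sterol regulatory element-binding protein) target genes in the list, and its direction was not that of most called genes there, since edgeR called 17 genes higher and 2 lower in KO culture and 8 higher and 3 lower in WT culture (23.3% of all genes tested were called in KO culture and 33.1% in WT culture).

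Early response genes made up the largest named set, with 6 of the 49 tested genes of an immediate early and AP-1 list. Of all 11572 genes tested, 54 were selected. The early genes were *Sik1*, *Plk2* and *Cd83*, given above, and *Junb*, *Ier2* and *Dusp1*. *Junb*, a subunit of the AP-1 transcription factor, held 47.1, 37.4 and 37.2 CPM in WT 0 h, 43.5, 37.1 and 50.0 CPM in WT 4 h, 44.9, 40.4 and 36.7 CPM in KO 0 h and 20.8, 21.1 and 26.5 CPM in KO 4 h. *Ier2*, a nuclear protein induced early after stimulation, went from 61.0 to 78.4 CPM to 53.5 to 64.9 CPM in WT and from 67.5 to 75.5 CPM to 30.7 to 37.0 CPM in KO. *Dusp1*, a phosphatase that switches off MAP kinases, was 38.6, 19.96 and 19.0 CPM in WT 0 h, 25.1, 21.0 and 27.1 CPM in WT 4 h, 22.2, 21.0 and 17.1 CPM in KO 0 h and 10.1, 12.05 and 11.1 CPM in KO 4 h. For each of these genes the KO 4 h libraries lay below all others, and WT 0 h replicate 1 of *Dusp1* stood above its group. Leaving out WT 0 h replicate 2 or WT 4 h replicate 1 took the WT change of *Ier2* past the limit.

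The whole early list did not share one direction. Of its genes, edgeR called 6 higher and 25 lower in KO culture, and 17 higher and 23 lower in WT culture, with median changes of −0.32 and −0.18 against 0.00 over all genes in both. Of 27 tested genes on a cAMP-responsive list, which includes *Sik1*, *Plk2*, *Junb* and *Dusp1*, 15 were called higher and 7 lower in WT culture, and 8 higher and 7 lower in KO culture. Among all 11572 genes tested, 1193 were called higher and 1503 lower in KO culture, and 1750 higher and 2080 lower in WT culture. The early and cAMP-responsive lists overlap and were written with earlier results of the same libraries known.

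*Prkca* and *Traf4*, from a list of B cell signaling genes with 54 tested, were lowered in KO. *Prkca*, protein kinase C alpha, was 50.3 to 57.7 CPM in WT 0 h, 39.7 to 54.6 CPM in WT 4 h, 50.7 to 58.4 CPM in KO 0 h and 28.6 to 34.3 CPM in KO 4 h. *Traf4*, an adaptor of the TNF receptor-associated family, went from 26.2 to 35.5 CPM down to 17.3 to 21.8 CPM in KO, and from 27.0 to 34.2 CPM to 23.3 to 27.4 CPM in WT. Under TMM scaling the WT change of both exceeded 0.25 in the same direction as KO (−0.29 and −0.31), so their place among these genes depends on the scale. *Vpreb3*, a chaperone-like partner of immature immunoglobulin chains, was lowered from 128 to 142 CPM to 79.9 to 97.6 CPM in KO. Its WT libraries also went down without overlap, from 130.2 to 144 CPM at 0 h to 116 to 122 CPM at 4 h, a change of −0.19 that became −0.30 under TMM scaling, where *Vpreb3* left the list.

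*Myl4*, a myosin light chain best known from atrial muscle, had the largest KO fall (−1.63). KO libraries went from 14.997, 11.7 and 17.7 CPM to 3.97, 4.10 and 4.27 CPM, while WT libraries held 9.65, 9.07 and 15.7 CPM at 0 h and 10.1, 11.1 and 12.6 CPM at 4 h. Cultured KO libraries lay below all others. The same held for *Itprip*, *Ehd1* (a membrane recycling ATPase), *Cdk5r1* (the p35 activator of CDK5), *Gem* (a small GTPase) and *Coq10b* (a coenzyme Q-binding protein), whose KO changes ran from −0.62 at *Gem* to −0.78 at *Coq10b*. *Esrra*, a nuclear receptor of mitochondrial genes, went from 15.2 to 17.6 CPM to 8.94 to 11.6 CPM in KO, overlapping the WT 4 h range of 11.2 to 13.1 CPM.

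*Ifit3* needs its libraries read singly. This interferon-induced gene had 14.0, 10.6 and 11.8 CPM in WT 0 h and 16.6, 12.2 and 18.3 CPM in KO 0 h, and 4.38, 5.96 and 3.56 CPM in KO 4 h. The WT 4 h libraries held 3.85, 3.12 and 28.6 CPM. Replicates 1 and 2 were as low as KO and replicate 3 alone was high, so the WT change of −0.03 rests on 1 library and was −1.55 without it. The summed level of 49 listed interferon-stimulated genes was also highest in that library of its group, at 2831 CPM in WT 4 h replicate 3 against 1684 and 1858 CPM in the other WT 4 h libraries. Of 47 such genes tested, edgeR called 42 lower in KO culture and 37 lower in WT culture. Of all 11572 genes tested, it called 1503 and 2080 lower, respectively. Without WT 4 h replicate 3, *Ifit3* and *Rsad2* both left the list.

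The 9 other lowered genes began high in KO cells. *Gm600* (current symbol *Nuggc*), a nuclear GTPase of germinal center B cells, was 20.9, 14.5 and 27.4 CPM in KO 0 h and 6.99, 11.9 and 16.9 CPM in KO 4 h. WT libraries held 4.24, 5.55 and 7.49 CPM at 0 h and 5.14, 6.72 and 7.11 CPM at 4 h. The kinetochore gene *Cenpf* was 21.7, 23.2 and 26.7 CPM in KO 0 h and 8.36, 18.1 and 17.8 CPM in KO 4 h, against 8.11 to 10.2 CPM in WT 0 h and 5.62 to 11.4 CPM in WT 4 h. For both genes the KO 0 h libraries were all above WT and KO 4 h replicate 1 lay within the WT range. Without KO 4 h replicate 1 the KO change was −0.51 for *Gm600* and −0.39 for *Cenpf*, short of the threshold. *Ncaph*, a condensin subunit, was 11.8, 12.6 and 13.04 CPM in KO 0 h and 7.12, 7.45 and 8.82 CPM in KO 4 h, with 4.13 to 9.73 CPM over all WT libraries. In a list of 83 tested DNA replication and mitosis genes, edgeR called 16 higher and 0 lower in KO at 0 h, where 0.838% of all genes tested were called.

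*Rsad2* (viperin, an interferon-induced antiviral protein), *Gda* (guanine deaminase) and *Specc1* (a cytoskeletal protein) followed single libraries of KO. *Rsad2* was 42.9, 70.2 and 20.8 CPM in KO 0 h replicates 1 to 3 and 16.03, 41.1 and 14.6 CPM in KO 4 h. *Gda* was 15.2, 23.8 and 6.45 CPM in KO 0 h, then 5.89, 14.7 and 6.54 CPM. *Specc1* was 22.2, 29.6 and 8.87 CPM, then 9.73, 19.9 and 8.25 CPM. In all 3 genes KO replicate 2 was the highest at both times and KO replicate 3 did not stand above the WT libraries, which held 11.8 to 30.3, 7.23 to 12.5 and 10.1 to 15.6 CPM. KO 0 h and KO 4 h libraries overlapped for each. Without KO 0 h replicate 2 the KO change was −0.40, −0.24 and −0.28, respectively. KO replicate 2 also held the highest sums of 8 neutrophil markers (138 CPM at 0 h and 127 CPM at 4 h, against 21.9 to 89.6 CPM in the other libraries, 7 of 8 counted) and of 11 erythroid markers (220.2 and 193 CPM against 61.4 to 143 CPM, 4 of 11 counted). The part of such cells in the values of these genes was not tested.

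*Igj* (the immunoglobulin J chain, current symbol *Jchain*) varied as much within groups as between them. KO 0 h libraries held 38.3, 26.2 and 50.0 CPM and KO 4 h libraries 11.1, 21.0 and 36.5 CPM, while WT ran from 8.51 to 32.2 CPM over both times. Markers of plasma cells, of which 5 of 8 were counted, *Igj* among them, summed to 414 to 471 CPM in all uncultured libraries, 538 to 568 CPM in WT 4 h and 460.3 to 500.0 CPM in KO 4 h. *Otub2*, a deubiquitinase, and *Gng12*, a G protein gamma subunit, completed the lowered genes that began high in KO, at 15.2 to 21.2 CPM and 9.71 to 13.3 CPM in KO 0 h.

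The 18 raised genes had low counts apart from *Tmem71*, *Cdc25b* and *Gpr174*. *Tmem71*, a transmembrane protein of little-known function, was counted at 50.6, 56.3 and 56.2 CPM in WT 0 h, 45.8, 45.6 and 46.6 CPM in WT 4 h, 43.8, 48.9 and 39.8 CPM in KO 0 h and 71.6, 72.8 and 69.7 CPM in KO 4 h. WT libraries fell, KO libraries rose and neither pair of groups overlapped. *Cdc25b*, a phosphatase that activates cyclin-dependent kinases, went from 80.3 to 87.1 CPM up to 127 to 140.5 CPM in KO, and from 88.4 to 91.6 CPM to 95.7 to 102 CPM in WT. *Chchd8* (current symbol *Coa4*, an assembly factor of cytochrome c oxidase) was 7.06, 6.81 and 8.33 CPM in KO 0 h and 13.3, 15.2 and 15.6 CPM in KO 4 h, while WT held 7.83 to 11.5 CPM over both times. KO 4 h libraries of *Cdc25b* and *Chchd8* were above all others.

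*Gab3*, an adaptor of cytokine receptor signaling, *Nexn*, an actin-binding protein, and *Krt222*, a keratin-related gene, showed the same order, with KO 4 h libraries at 25.3 to 32.1, 15.1 to 18.4 and 22.6 to 28.5 CPM and WT 4 h libraries at 16.8 to 21.8, 8.99 to 13.9 and 7.87 to 18.5 CPM, respectively. *Gm15880*, an antisense transcript, was the only raised gene with a WT fall of at least 0.25. It held 18.1, 17.8 and 13.3 CPM in WT 0 h, 10.8, 14.4 and 9.18 CPM in WT 4 h, 14.3, 15.9 and 15.7 CPM in KO 0 h and 28.2, 28.6 and 23.2 CPM in KO 4 h. It lies wholly within the span of *Crtc3*, a CREB coactivator gene on the opposite strand, whose own culture change was −0.06 in KO and −0.25 in WT. Their exons do not overlap. Strand was not stated for the counting, so reads from *Crtc3* introns could not be told apart from those of *Gm15880*. *Ccdc99* (current symbol *Spdl1*, a kinetochore protein), *Pmel*, a melanosome protein, and *BC024582* also had KO 4 h libraries above all their WT 4 h libraries, with KO changes of 0.63, 0.63 and 0.61. Exons of *A130049A11Rik* (current symbol *Phtf1os*) share 51.9% of their bases with *Rsbn1* on the other strand, so its counts are uncertain.

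*Eps8l1*, which is related to an actin-remodeling adaptor, had the largest KO rise (1.20), and a single library carried it. KO 4 h replicates 1 to 3 held 60.0, 16.1 and 17.2 CPM, and without replicate 1 the change was 0.34. WT libraries varied as widely, at 24.4, 16.9 and 43.0 CPM at 0 h and 20.1, 17.2 and 46.2 CPM at 4 h. Of the other raised genes that began low in KO, *Gpr174* stayed below WT after culture, as given above. *Nit2*, an amidase, was 12.5 to 13.9 CPM in KO 0 h and 20.4 to 20.7 CPM in KO 4 h, with WT libraries at 15.6 to 23.8 CPM. *Nfia*, a transcription factor, went from 5.08 to 6.81 CPM to 9.44 to 10.4 CPM in KO and ran from 6.46 to 11.6 CPM in WT. *2310047M10Rik*, *A430035B10Rik* and *Zfp956* also began below WT, with KO changes of 0.76, 0.73 and 0.61.

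A comparison of the genotypes over both times together was then made, because its estimate does not share error with either culture change when libraries vary alike. The contrast is KO minus WT averaged over 0 h and 4 h, fitted by edgeR's quasi-likelihood test on all 12 libraries with Benjamini-Hochberg adjustment over the 11572 genes tested. It called 26 of the 54 genes at an adjusted p under 0.05 (48.1%), where 8.63% of all genes tested were called. Of the 26, 22 were lower in KO (4.51% of all genes were) and 4 were higher (4.12%). The median size of the averaged difference was 0.33 over the 54 genes and 0.10 over all genes tested. The selection required the genotypes to part in culture change, and a gene that parted at 4 h alone still carries part of that gap in the average. The share of genes called is therefore a description and gives no separate support to the selection. Because each genotype had 3 mice, its 0 h and 4 h libraries share mice. The contrast thus rests on 3 mice against 3 and not on 6 separate libraries a side. The adjusted p-values of edgeR for this contrast, here and below, take the 12 libraries as separate. Whether the number marks the mouse was not stated. With 0 h and 4 h averaged within each genotype and number, an alternative added after the data were seen, limma on these 3 means against 3 called 20 of the 54 (6.27% of all genes tested), all of them among the 26. The calls of *Cd83*, *Coq10b*, *Ehd1*, *Hs3st1*, *Krt222* and *Myl4* were lost.

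The genes lower in KO on average were 21 of the 36 lowered genes and *Gpr174*. The largest differences were at *B3gnt7* (log2 −1.79 ± 0.19, SE, adjusted p = 1.69e-06 by edgeR), *Plk2* (−1.32 ± 0.21, adjusted p = 0.000264 by edgeR) and *Sik1* (−1.13 ± 0.07, adjusted p = 1.94e-10 by edgeR). *Zyx* (−0.81 ± 0.07), *Dusp1* (−0.78 ± 0.15), *Armc9* (−0.75 ± 0.08), *Kctd12* (−0.75 ± 0.05) and *Antxr2* (−0.66 ± 0.11) followed. *Scd1* had a smaller but tightly measured difference of −0.45 ± 0.04 (edgeR adjusted p = 6.1e-08). *Junb* differed by −0.50 ± 0.09 and *Ier2* by −0.38 ± 0.07. Adjusted p-values of these 8 genes ran from 4.95e-09 at *Kctd12* to 0.00209 at *Dusp1*, in edgeR's fit. The *B3gnt7* value is a description, since only WT 4 h, its high group, carried that gene past the CPM minimum.

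Higher in KO on average were *Gm600* (1.35 ± 0.20, edgeR adjusted p = 7.57e-05), *Cenpf* (1.08 ± 0.17, edgeR adjusted p = 0.000204), *Gm15880* (0.54 ± 0.12, edgeR adjusted p = 0.00459) and *Krt222* (0.46 ± 0.14, edgeR adjusted p = 0.0485). The *Gm600* value is a description, since only the KO groups, where it was high, carried that gene past the CPM minimum. Its WT means were 5.76 CPM at 0 h and 6.32 CPM at 4 h. *Gm600* and *Cenpf* thus stood above WT on average while falling in KO culture, and *Gpr174* stood below WT (−0.79 ± 0.05) while rising. The other 23 called genes differed in the direction of their KO culture change. For genes farther apart at 4 h the selection largely sets that direction. Mean differences of *Mpeg1* (−0.24 ± 0.11, edgeR adjusted p = 0.211) and *Ccr6* (−0.10 ± 0.06, edgeR adjusted p = 0.372), whose genotypes changed places in culture, did not pass, and those of *Ifit3* (adjusted p = 0.368), *Rsad2* (0.28) and *Eps8l1* (0.31) did not pass either in edgeR's fit.

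**Figure D4:**
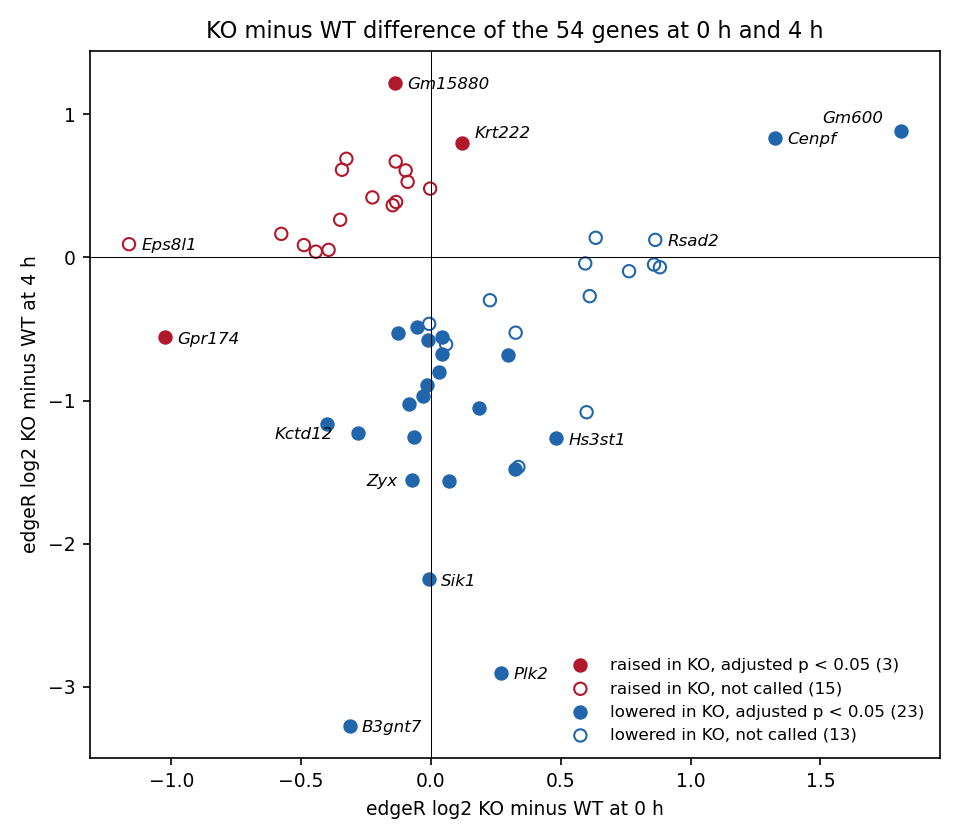
KO minus WT difference of the 54 genes at 0 h (x axis) and 4 h (y axis), as edgeR log2 values, with filled symbols where the difference averaged over both times had an adjusted p under 0.05. Most of the 23 filled lowered genes lie near 0 on the x axis and below 0 on the y axis, down to *B3gnt7*, while *Gm600* and *Cenpf* lie to the upper right and *Gpr174* to the lower left.

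Counts of calls in the contrasts that the selection used were largely set by that choice and are given as a description, with nothing read from them. In the same fit, edgeR called 48 of the 54 in KO culture (23.3% of all genes tested) and 14 in WT culture (33.1%). It called 26 in the difference of the culture changes (6.39%), 3 in KO minus WT at 0 h (0.838%) and 35 in KO minus WT at 4 h (11.2%). The 3 at 0 h were *Gm600*, *Cenpf* and *Gpr174*. KO 0 h and KO 4 h libraries did not overlap for 48 of the 54 (51.5% of the 8820 genes), WT 4 h and KO 4 h libraries did not overlap for 36 (29.7%), and WT 0 h and KO 0 h libraries did not overlap for 16 (18.9%). The 14 genes called in WT culture all belong to the 38 that stood farther apart at 4 h, with 8 higher and 6 lower after WT culture.

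The choice of genes was not equally firm for all. When each of the 12 libraries was left out in turn, 19 genes were selected every time, 15 lowered and 4 raised. They were *Sik1*, *Scd1*, *Myl4*, *Junb*, *Armc9*, *Antxr2*, *Coq10b*, *Mpeg1*, *Itprip*, *Zyx*, *B4galt5*, *Ehd1*, *B3gnt7*, *Cdk5r1* and *Kctd12*, and *Chchd8*, *Gm15880*, *Nexn* and *Tmem71*. Of these, 14 were among the 26 called on average. At the other end, *Gem* was kept in 6 of the 12 settings. Under TMM scaling the KO change kept its direction in 54 of 54 genes, and 36 still met the selection rule, 28 lowered and 8 raised. Of the 19 genes above, 17 still met it, and *Scd1* and *Tmem71* did not. Among the other genes that left the list were *Ier2*, *Cdc25b* and *Gpr174*. Of the 54 genes, 16 averaged under 12 CPM, and the median was 20.7 CPM.

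Positions and gene types were read from GENCODE (GRCm38), which held 53 of the 54 genes, 6 of them under a newer symbol. Protein-coding genes numbered 50 and the remaining 3 were noncoding. The genes lay on 18 chromosomes, with 8 on chromosome 11 and 7 on chromosome 19. Exons of 18 genes overlapped a gene on the opposite strand, and 10 overlapped another gene that was itself counted. None of the 54 was on the lists of sterol efflux, heat shock, p53 or MYC genes, nor among the markers of B cells, marginal zone B cells, macrophages, dendritic cells, T cells, NK cells, neutrophils, erythroid cells, platelets or stroma.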

How the data were processed

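Follicular B cells from WT and GPR174-deficient mice were sequenced at 0 h and 4 h, with 3 libraries in each of 4 groups. Per the study's methods, single-end reads of 50 bases from amplified cDNA were aligned to mm10 with STAR and counted per gene with HTSeq. Strand setting, annotation and tool versions were not given in the sources used here. The authors deposited raw counts without normalization, in a table for each time (13269 and 13142 genes, each row summing to at least 10), and 0 columns were left unmapped. Groups were taken from the labels.

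CPM were counts over the column sum, and the pseudocount was 1 CPM. The members and lists were chosen with earlier results of these data known. Named were the 12 largest KO rises and falls, members on a list, the threshold neighbors, the 5 smallest adjusted p in each direction of the averaged contrast, and *Gpr174* and *Cd86*; further members were named after their values were seen, to account for them. Tests used edgeR 4.0.16 in R 4.3.3 (TMM, filterByExpr, glmQLFit and glmQLFTest) on genes in both tables, with a threshold of 0.05. The scripts were tested on simulated data. DESeq2 1.42.0, other scalings and filters, a replicate block and leaving out each library were the alternatives. Limma 3.58.1 (log2 CPM, prior count 2, trended variance) was added after the data were seen, on the libraries and on 1 mean per genotype and number. With 3 libraries against 3, a permutation cannot give a p under 0.1, so adjusted p-values depend on the fitted count model. Molecular identifiers were not used. Replicate pairs differed by more than counting noise (chi-square per degree of freedom 2.00 to 9.88). Promoter letters came from RefSeq (GRCm38.p6) and positions from GENCODE vM21. Figures were drawn with matplotlib 3.10.9.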

Additional observations from a re-analysis of the deposited data

Results flagged for a closer look

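In 10 of the 54 genes all KO 4 h libraries lay on one side of all KO 0 h libraries, and WT libraries lay the opposite way. The 0 h and 4 h libraries thus did not overlap in either genotype. The difference in culture change was used to choose the genes and was not tested. The KO change minus the WT change, on the log2(CPM + 1) scale, was −2.58 for *B3gnt7*, −2.20 for *Sik1*, −1.70 for *Hs3st1*, −1.64 for *Armc9*, −1.62 for *Mpeg1*, −1.47 for *Zyx*, −1.11 for *Coq10b*, −0.99 for *Cd83* and −0.86 for *Ccr6*, all lowered in KO. *Tmem71*, raised in KO, had a difference of 0.92.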

How the results depend on the processing

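The rule took 54 genes (18 raised, 36 lowered). It took 85 with the median of the libraries in place of the mean (34 raised), 33 with a minimum of 16 CPM (10 raised, 23 lowered, 33 kept) and 9 raised genes with a WT limit of 0.15. Leaving out 1 library at a time gave 48 to 77 genes, 17 to 39 raised, 27 to 47 lowered and 37 to 51 kept. The averaged genotype contrast then called 669 to 1057 genes (345 to 566 lower and 324 to 500 higher in KO) and 19 to 26 of the 54 (16 to 22 lower, 3 to 4 higher). KO culture called 1919 to 2890 genes and 38 to 50 of the 54, WT culture 3240 to 3779 and 12 to 15, and their difference 497 to 743 and 23 to 27. KO minus WT called 22 to 120 genes at 0 h and 2 to 5 of the 54, and at 4 h 894 to 1393 and 29 to 36. The lowest 0 h count came without KO 0 h replicate 3. Of the 54 genes, 3 were called at 0 h, 8 by DESeq2 and 5 with a replicate block across groups. The cause was not tested.

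Libraries with the same number at 0 h and 4 h correlated at 0.07 to 0.13 in WT and −0.04 to 0.15 in KO. Of the 6 cultured libraries, 5 correlated best with their own number, as a hint from the data. The numbers were not used to pair libraries in the main fit. Such correlations cannot settle whether libraries of a number share a mouse. With the number as a replicate block the averaged contrast called 1001 genes, against 999, and with a block within genotype KO culture called 2858 (2696 without), WT culture 3982 (3830) and the difference 842 (739).

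In fits chosen after the data were seen, limma on the 12 libraries called 993 genes and 23 of the 54 in the averaged contrast, and limma on 1 mean per genotype and number called 725 and 20. Of 26 averaged calls, 18 held in all 19 alternatives, and *Coq10b* (14), *Ehd1* (12), *Hs3st1* (11), *Cd83* (9), *Gem* (8), *Krt222* (8), *Myl4* (5) and *Cdk5r1* (1) missed the threshold in the number given. No direction reversed. Counting error is widest in relative terms for genes of low counts, and 16 of the 54 averaged under 12 CPM.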
